A study of Mus musculus with 3 samples.

Results

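Goblet cells, the secretory cells of the colonic crypt that fill and release mucus granules, were followed through 10 genes of their secretory programme: Muc2, Fcgbp, Clca1, Zg16, Tff3, Agr2, Spink4, Reg4, Spdef and Sytl2. The genes were taken by symbol from the 32285 annotated features, and each symbol matched 1 feature. Spatial expression had been measured with Visium, which captures polyadenylated RNA from a section on barcoded array spots and counts molecules by unique molecular identifiers (UMIs). The sections were 10 µm thick, cut from fresh-frozen mouse distal colon. There was 1 library per group, each labelled as 3 biological replicates.

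The groups were day 2 colonic wounds of Hgfac KO mice (KO wound), day 2 colonic wounds of Hgfac WT mice (WT wound) and intact distal colon of Hgfac WT mice (WT intact). Hgfac encodes the activator of hepatocyte growth factor, a secreted protease that cleaves the growth factor's precursor. The labels give neither the Hgfac allele, nor the way the wounds were made, nor the age, sex or strain of the animals. KO intact tissue was not analysed here, so the effect of the genotype without a wound is not part of these comparisons. The libraries filled separate capture areas of 1 slide, and thus what is due to the area and to the group cannot be told apart.

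The colonic epithelium is renewed from stem cells at the crypt base, and goblet cells mature as they move up the crypt to the surface. There they release Muc2, the gel-forming mucin, together with proteins that bind, cut or organise the gel and keep bacteria away from the epithelium. Secretory differentiation is set by Atoh1 and then by Spdef, an ETS-family transcription factor of goblet cell maturation.

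The members fall into 4 roles. Muc2, Fcgbp, Clca1, Zg16 and Tff3 are components of the secreted mucus: Muc2 forms its network, Fcgbp is a large protein linked to it, Clca1 is a metalloprotease that cleaves Muc2, Zg16 is a lectin-like protein that binds bacterial cell walls, and Tff3 is a trefoil peptide of epithelial repair. Agr2 is a disulfide isomerase of the endoplasmic reticulum needed for Muc2 folding. Spink4 and Reg4 encode secreted proteins, a Kazal-type protease inhibitor and a C-type lectin, of a secretory population rich at the crypt base. Spdef is the regulator named above, and Sytl2 encodes a synaptotagmin-like effector of Rab27 in granule exocytosis.

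On GRCm38, 4 of the genes lie on chromosome 7, Muc2 at chr7:141690340-141754691, Fcgbp at chr7:28071236-28120864, Zg16 at chr7:127050156-127052675 and Sytl2 at chr7:90302211-90410719. Clca1 lies at chr3:145004537-145032776, Reg4 at chr3:98222138-98236748, Tff3 at chr17:31125306-31129611, Spdef at chr17:27714446-27731003, Agr2 at chr12:35992925-36004081 and Spink4 at chr4:40920056-40931395. Of the 10 genes, 5 had an entry in the RefSeq promoter table for GRCm38.p6. The 250 bases before the start listed in that table are shown for 4 of them. These were picked because in the sections Muc2 and Fcgbp were higher in surface spots and Agr2 and Reg4 in crypt spots, as defined with those results. All 4 are on the plus strand, at chr7:141690090-141690339 for Muc2, chr7:28070986-28071235 for Fcgbp, chr12:35992675-35992924 for Agr2 and chr3:98221906-98222155 for Reg4. The Reg4 window ends inside the gene span given above. Capitals mark matches on either strand to an E-box (CAGNTG), a FOXA-type motif (TGTTTNC), a CDX-type motif (TTTATNG), a KLF-type motif (CACCC) and an SPDEF-type motif (GGATGT).
Muc2: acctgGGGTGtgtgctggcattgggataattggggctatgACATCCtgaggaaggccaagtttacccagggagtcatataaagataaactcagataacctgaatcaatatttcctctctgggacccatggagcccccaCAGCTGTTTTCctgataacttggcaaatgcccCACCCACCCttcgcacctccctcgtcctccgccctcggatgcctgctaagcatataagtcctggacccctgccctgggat
Fcgbp: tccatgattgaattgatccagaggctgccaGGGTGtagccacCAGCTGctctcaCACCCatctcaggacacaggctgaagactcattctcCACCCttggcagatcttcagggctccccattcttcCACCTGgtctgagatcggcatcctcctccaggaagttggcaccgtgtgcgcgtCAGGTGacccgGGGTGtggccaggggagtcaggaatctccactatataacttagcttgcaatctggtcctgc
Agr2: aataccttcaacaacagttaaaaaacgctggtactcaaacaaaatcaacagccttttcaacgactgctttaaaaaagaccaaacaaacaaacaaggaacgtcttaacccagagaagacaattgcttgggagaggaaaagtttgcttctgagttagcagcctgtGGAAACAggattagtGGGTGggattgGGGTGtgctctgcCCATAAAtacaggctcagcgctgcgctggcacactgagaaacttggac
Reg4: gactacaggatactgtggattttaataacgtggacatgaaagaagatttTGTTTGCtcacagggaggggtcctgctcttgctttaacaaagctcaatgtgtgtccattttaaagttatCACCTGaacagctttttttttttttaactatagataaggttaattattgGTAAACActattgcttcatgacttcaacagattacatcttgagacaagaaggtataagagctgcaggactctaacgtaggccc
The Muc2 window held 1 E-box, which overlaps its 1 FOXA-type match, 3 KLF-type matches, of which a pair overlap, and 1 SPDEF-type match. The Fcgbp window held 3 E-boxes and 4 KLF-type matches. Agr2 had 1 FOXA-type, 1 CDX-type and 2 KLF-type matches, and Reg4 had 1 E-box and 2 FOXA-type matches. The Spdef window, scanned but not shown, had 0 matches to any of these motifs. Of the 5 members with a window, 3 held the E-box, 3 the FOXA-type, 1 the CDX-type, 3 the KLF-type and 1 the SPDEF-type motif. Among 27025 promoters of the same length, 44.5% held the E-box, 17.9% the FOXA-type, 10.2% the CDX-type, 51.3% the KLF-type and 9.40% the SPDEF-type motif. The E-box and the KLF-type motif are thus common, and a match describes letters in the window, not binding of a factor.

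The libraries held 572 spots and 8930574 UMIs (KO wound), 640 spots and 11306771 UMIs (WT wound) and 502 spots and 8180099 UMIs (WT intact). A spot is a small region that can hold several cells of different types. The spots of each library formed 3 connected pieces of tissue, numbered 1 to 3 from the top of the array. No label links a piece with an animal, and piece 1 of one library has nothing in common with piece 1 of another. Counts are given as CPM, a gene's UMIs scaled to 1e6 UMIs of the spots summed. Brackets are 95% intervals of a ratio that cover counting error only. With 1 library per group no test between groups was possible, and the spread over pieces is the only measure of variation within a library. Hgfac itself had 49.0 CPM in KO wound (438 UMIs; pieces 38.4 to 59.5), 94.8 in WT wound (pieces 87.6 to 105) and 76.6 in WT intact (pieces 66.0 to 84.1), so its transcript was lower, not absent, in the library labelled KO.

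Tissue composition differed between the sections, and fewer goblet cells in a spot and less RNA per goblet cell cannot be told apart in these sums. Spots whose summed CPM of 12 epithelial genes exceeded that of 8 smooth muscle genes were called epithelial: 421 of KO wound (73.6%), 403 of WT wound (63.0%) and 236 of WT intact (47.0%). All 12 epithelial genes were detected in each library, with sums of 15500, 15700 and 15760 CPM in KO wound, WT wound and WT intact. The 8 smooth muscle genes summed to 5610 CPM in KO wound (pieces 2982 to 9311), 6900 in WT wound (5678 to 8992) and 9732 in WT intact (5831 to 14470). The 8 immune and stromal markers, all detected in each library, summed to 4145, 3763 and 1733 CPM. The 10 genes together took 2.64% of all UMIs in KO wound, 2.42% in WT wound and 1.72% in WT intact.

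The WT wound library was set against WT intact to describe these genes at day 2 after wounding. Most mucus genes were moderately higher in the wounded colon: Muc2 by 1.81-fold, Clca1 by 1.64, Fcgbp by 1.51, Zg16 by 1.39 and Tff3 by 1.32. Spink4 was 1.57-fold and Spdef 1.65-fold higher, Agr2 was close to its intact level and Reg4 slightly lower.

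Muc2 had 1581, 2220 and 1290 CPM in the 3 WT wound pieces, against 1262, 1021 and 649 in the WT intact pieces. All WT wound pieces lay above all WT intact pieces, and the library ratio was 1.81 [1.76 to 1.86]. Fcgbp had 1579, 2209 and 1434 CPM in WT wound, against 1725, 1054 and 885 in WT intact, a ratio of 1.51 [1.47 to 1.55], with WT intact piece 1 inside the WT wound range. Clca1 varied widely between pieces, with 1781, 3470 and 1024 CPM in WT wound, against 2502, 1084 and 718 in WT intact, a ratio of 1.64 [1.60 to 1.68]. Its groups overlapped, since WT intact piece 1 stood above WT wound pieces 1 and 3. Clca1 lies among related Clca genes on chromosome 3, and how reads shared by near copies were counted is not known here.

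Zg16 had 5894, 12570 and 4717 CPM in the WT wound pieces, against 7965, 6571 and 3097 in WT intact. Its ratio of 1.39 [1.37 to 1.40] rested on WT wound piece 2: without it the log2 ratio was -0.09, against 0.47 with all pieces. Tff3 had 4797, 6620 and 4099 CPM in WT wound, against 5146, 4078 and 3032 in WT intact, a ratio of 1.32 [1.30 to 1.33] with overlapping pieces. Clca1 also depended on WT wound piece 2, with a log2 ratio of 0.13 without it, against 0.71 with all pieces.

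Spink4 had 3519, 3473 and 3129 CPM in the WT wound pieces, against 1781, 2595 and 1951 in WT intact, a ratio of 1.57 [1.55 to 1.60]. Its WT wound pieces were close to each other and all above the WT intact pieces. Agr2 had 1548, 1800 and 1190 CPM in WT wound, against 1633, 1780 and 979 in WT intact, a ratio of 1.05 [1.03 to 1.08]. Reg4 had 436, 253 and 170 CPM in WT wound, against 421, 349 and 235 in WT intact, a ratio of 0.902 [0.857 to 0.949], and its pieces overlapped.

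The least counted members were Spdef and Sytl2. Spdef had 29.8, 34.1 and 21.8 CPM in the WT wound pieces, against 19.2, 19.7 and 14.2 in WT intact, a ratio of 1.65 [1.36 to 2.03] from 329 and 144 UMIs, with the WT wound pieces all above. Sytl2 had 29.1, 40.0 and 21.5 CPM in WT wound, against 29.4, 23.1 and 19.2 in WT intact, a ratio of 1.32 [1.11 to 1.59].

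None of the 10 genes reached a 2-fold difference in either direction, while 3.29% of the 12402 genes with at least 50 UMIs did so upward and 3.08% downward. The median log2 ratio of the 10 genes was 0.53, and that of all genes measured was 0.09. The members' median was 0.16 without WT wound piece 2 and 0.34 without WT intact piece 3. Without WT intact piece 1, Clca1 and Muc2 passed 2-fold, at log2 ratios of 1.25 and 1.03. In 3 of 10 genes (Muc2, Spink4 and Spdef) all WT wound pieces lay above all WT intact pieces, which held for 15.6% of all genes, and in none did they all lie below, which held for 6.89% of all genes. Over epithelial spots alone the ratios were close to those of the whole libraries, at 1.76 for Muc2, 1.61 for Spink4, 1.56 for Clca1, 1.33 for Zg16 and 0.997 for Agr2. Immune and stromal markers and smooth muscle genes moved between the same libraries, and their part in these ratios was not tested.

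**Figure D1:**
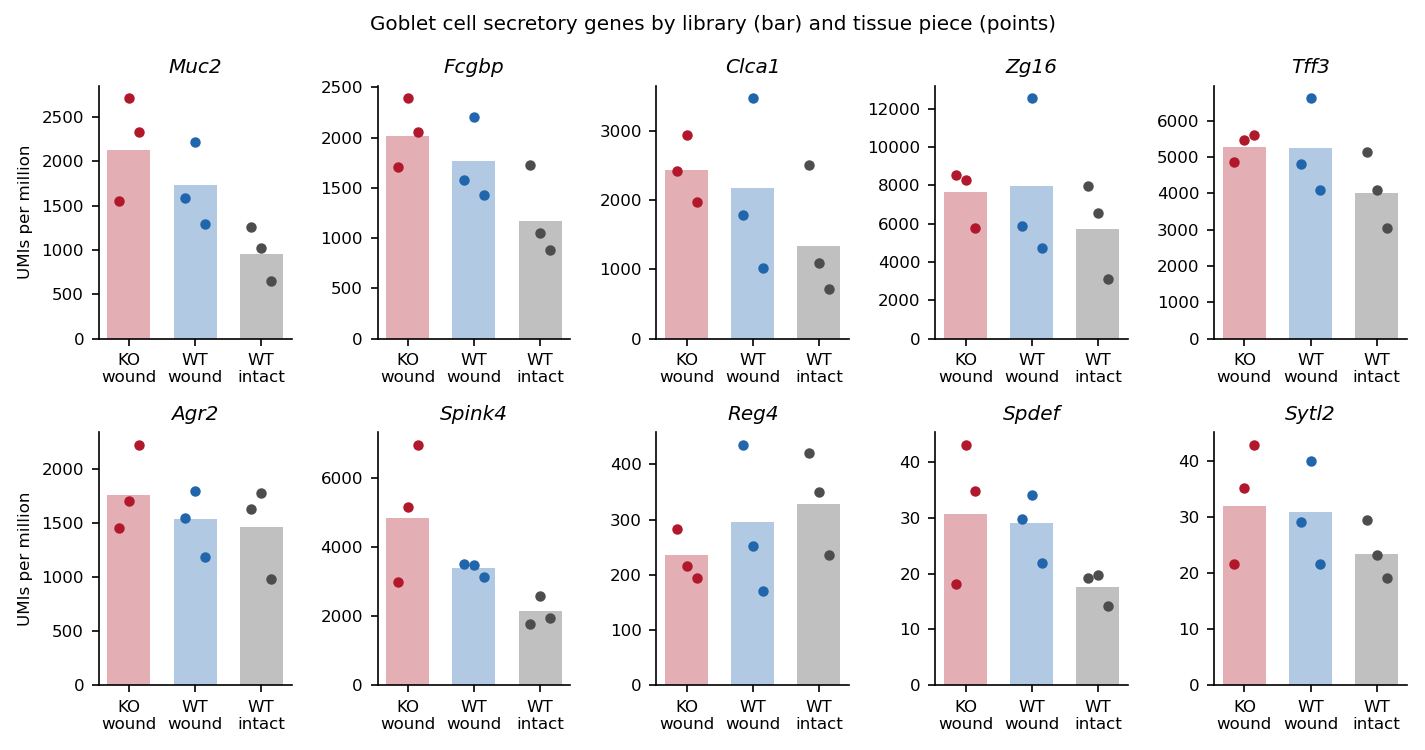
CPM of each of the 10 genes in KO wound, WT wound and WT intact, from left to right, with the library value as a bar and the 3 tissue pieces as points on axes that start at 0. The WT wound pieces of Muc2, Spink4 and Spdef stand above all WT intact pieces, and KO wound and WT wound pieces overlap for every gene.

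KO wound was then set against WT wound to describe these genes in the wounds of both genotypes at the same day. The mucus genes were similar in the wounded colon of both genotypes, with ratios between 0.959 for Zg16 and 1.23 for Muc2. Spink4 was the member that differed most, at 1.42-fold higher in KO wound, and Reg4 was lower, at 0.796. For no member were the pieces of the libraries wholly apart.

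Spink4 had 2976, 5175 and 6973 CPM in the KO wound pieces, against 3519, 3473 and 3129 in the WT wound pieces, a ratio of 1.42 [1.41 to 1.44]. KO wound pieces 2 and 3 were above, and KO wound piece 1 below, all WT wound pieces. The spread over the KO wound pieces was wider than the difference between the libraries, and the log2 ratio, 0.51 with all pieces, was 0.20 without KO wound piece 3 and 0.84 without KO wound piece 1. Muc2 had 1554, 2713 and 2326 CPM in KO wound, against 1581, 2220 and 1290 in WT wound, a ratio of 1.23 [1.21 to 1.26].

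Zg16 had 8550, 8296 and 5798 CPM in the KO wound pieces, against 5894, 12570 and 4717 in WT wound, a ratio of 0.959 [0.9496 to 0.9687]. The direction depended on WT wound piece 2, without which the log2 ratio was 0.50, against -0.06 with all pieces. Clca1 had 2419, 2936 and 1966 CPM in KO wound, against 1781, 3470 and 1024 in WT wound, a ratio of 1.12 [1.10 to 1.14], with a log2 ratio of 0.74 without WT wound piece 2. That piece held the highest Zg16, Clca1 and Tff3 levels of all 9 pieces.

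For Fcgbp the KO wound pieces had 1706, 2395 and 2058 CPM, against 1579, 2209 and 1434 in WT wound (ratio 1.14 [1.12 to 1.17]). For Tff3 they had 4854, 5468 and 5615 CPM, against 4797, 6620 and 4099 in WT wound (1.001 [0.9891 to 1.013]). For Agr2 they had 1457, 1707 and 2229 CPM, against 1548, 1800 and 1190 in WT wound (1.15 [1.12 to 1.17]). These 3 genes overlapped between the libraries, and Agr2 was highest in KO wound piece 3, the piece with the most Spink4.

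Reg4 had 282, 216 and 195 CPM in KO wound, against 436, 253 and 170 in WT wound, a ratio of 0.796 [0.753 to 0.841], and the high WT wound value came from piece 1. Spdef had 18.2, 43.2 and 34.8 CPM in KO wound, against 29.8, 34.1 and 21.8 in WT wound, a ratio of 1.05 [0.895 to 1.24]. Sytl2 had 21.6, 35.2 and 42.9 CPM in KO wound, against 29.1, 40.0 and 21.5 in WT wound, a ratio of 1.04 [0.884 to 1.22]. The intervals of the last pair include 1.

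No member was past 2-fold, where 0.73% of 12463 genes were higher and 0.746% lower by that much. The median log2 ratio was 0.12 for the members and 0.05 for all genes. The members' median ran from -0.082 without WT wound piece 3 to 0.38 without WT wound piece 2. All KO wound pieces lay above or below all WT wound pieces for 0 of 10 members, against 5.79% of all genes above and 2.24% below. The 12 wound-bed genes, such as S100a8 and Il1b of inflammatory cells and the extracellular matrix genes Lox and Timp1, were all detected in KO wound, and in WT wound all but Cxcl2. They summed to 606 CPM in KO wound (pieces 262 to 1032) and 167 CPM in WT wound (pieces 154 to 180), and their part in the Spink4 difference was not tested.

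The position of the transcripts along the crypt was examined next. Within each library the epithelial spots were ranked by the ratio of 8 surface colonocyte genes to 12 crypt genes, none of them a member, and cut into 3 equal classes called surface, middle and crypt. The classes held 140, 141 and 140 spots in KO wound, 134, 135 and 134 in WT wound and 78, 80 and 78 in WT intact. The 10 genes split in the same way in all 3 libraries: Clca1, Zg16, Fcgbp, Tff3 and Muc2 were higher in surface spots, Reg4, Spink4 and Agr2 were higher in crypt spots, and Spdef and Sytl2 differed little or unevenly.

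Clca1 had the steepest slope toward the surface. In KO wound it had 4988 CPM in surface spots, against 359 in crypt spots, in WT wound 4392 against 517, and in WT intact 3273 against 130. The ratios were 13.9 [12.8 to 15.1], 8.50 [8.01 to 9.03] and 25.2 [21.8 to 29.2] in that order of libraries. Zg16 had 14350 CPM in surface spots, against 1442 in crypt spots, in KO wound, 15080 against 2170 in WT wound and 11830 against 883 in WT intact. Its ratios were 9.95 [9.55 to 10.4], 6.95 [6.75 to 7.16] and 13.4 [12.7 to 14.2].

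Fcgbp had 3793 CPM in surface spots, against 469 in crypt spots, in KO wound, 3364 against 523 in WT wound and 2351 against 287 in WT intact, so the ratios were 8.08, 6.44 and 8.18. Tff3 had 9323 against 1979 CPM in KO wound, 9270 against 2129 in WT wound and 7262 against 1326 in WT intact, with ratios of 4.71, 4.36 and 5.48. Muc2 had the shallowest slope of the mucus genes, with 3199 against 1500 CPM in KO wound, 2777 against 1107 in WT wound and 1728 against 464 in WT intact. Its ratios were 2.13 [2.04 to 2.23], 2.51 [2.40 to 2.62] and 3.73 [3.44 to 4.04]. All 5 genes were higher in surface than in crypt spots in 9 of 9 pieces.

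The opposite slope was steepest for Reg4. It had 68.3 CPM in surface spots, against 668 in crypt spots, in KO wound, 91.1 against 718 in WT wound and 75.4 against 926 in WT intact, with ratios of 0.102 [0.0886 to 0.118], 0.127 [0.113 to 0.142] and 0.0814 [0.0694 to 0.0950]. Spink4 had 2778 CPM in surface spots, against 9821 in crypt spots, in KO wound, 2083 against 6279 in WT wound and 853 against 4771 in WT intact. Its ratios were 0.283 [0.276 to 0.290], 0.332 [0.323 to 0.341] and 0.179 [0.170 to 0.188]. Agr2 had a shallower slope, with 1541 against 2773 CPM in KO wound, 1398 against 2328 in WT wound and 1178 against 2436 in WT intact. For these 3 genes 0 of 9 pieces were higher in surface spots.

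Spdef had 22.4 CPM in surface spots, against 54.3 in crypt spots, in KO wound, a ratio of 0.412 [0.301 to 0.564]. In WT wound it had 29.8 against 37.2 CPM and in WT intact 17.7 against 20.2, ratios of 0.803 [0.6004 to 1.077] and 0.877 [0.538 to 1.45], whose intervals include 1. By piece the ratio was 0.343 to 0.522 in KO wound and 0.674 to 0.865 in WT wound, without overlap, and the WT intact pieces spanned 0.427 to 1.36. These piece ratios rest on few UMIs, such as 22 in surface and 18 in crypt spots of KO wound piece 1 and 28 and 19 in WT wound piece 3. The share of all genes that lay apart in this way was not counted. Sytl2 was higher in surface spots in 8 of 9 pieces, with ratios of 1.31, 1.56 and 1.26 in KO wound, WT wound and WT intact.

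Counted against the whole table, 5 of 10 genes were at least 2-fold higher in surface spots in each library, where 8.26% of genes in KO wound, 6.84% in WT wound and 11% in WT intact were. At most 0.5-fold were 3 of 10 in KO wound, 2 of 10 in WT wound and 3 of 10 in WT intact, where 28.2%, 29.5% and 25.4% of genes were. Reg4 and Spink4 were among them in each library, joined by Spdef in KO wound and by Agr2 in WT intact. The share of members low in surface spots was thus near that of all genes, and the share of members high there was above it. The median log2 ratio was 0.74, 0.98 and 1.12 for the members and -0.50, -0.55 and -0.39 for all genes.

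The epithelial list itself was 2.13, 1.98 and 2.25 times higher in surface than in crypt spots of KO wound, WT wound and WT intact. Smooth muscle genes summed to 363, 494 and 523 CPM in surface spots, against 1500, 1845 and 1842 CPM in crypt spots. Per UMI of the epithelial list, Muc2 was level between surface and crypt spots of KO wound, where its log2 ratio was 0.0023, against 0.34 in WT wound and 0.73 in WT intact. On that scale the members' median was -0.35, -0.0035 and -0.051. Clca1, Zg16, Fcgbp and Tff3 still had log2 ratios of 1.14 to 3.49 over the libraries, while Sytl2 turned to -0.70, -0.35 and -0.83 in KO wound, WT wound and WT intact. Surface spots were also deeper, with medians of 24790, 28740 and 30630 UMIs, against 10940, 14870 and 17640 in crypt spots. Spots with more than 10 times as much smooth muscle as epithelial signal still held 659, 1047 and 923 CPM of Zg16 and 757, 1239 and 828 CPM of Spink4 in KO wound, WT wound and WT intact. As neither gene is known as a muscle product, these levels served as background. The Zg16 level of WT intact crypt spots, 883 CPM, was no higher than it, while those of KO wound and WT wound, 1442 and 2170 CPM, were above it. The Spink4 level of WT intact surface spots, 853 CPM, was close to its background of 828 CPM. In KO wound and WT wound the Spink4 surface levels, 2778 and 2083 CPM, were above theirs.

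**Figure D2:**
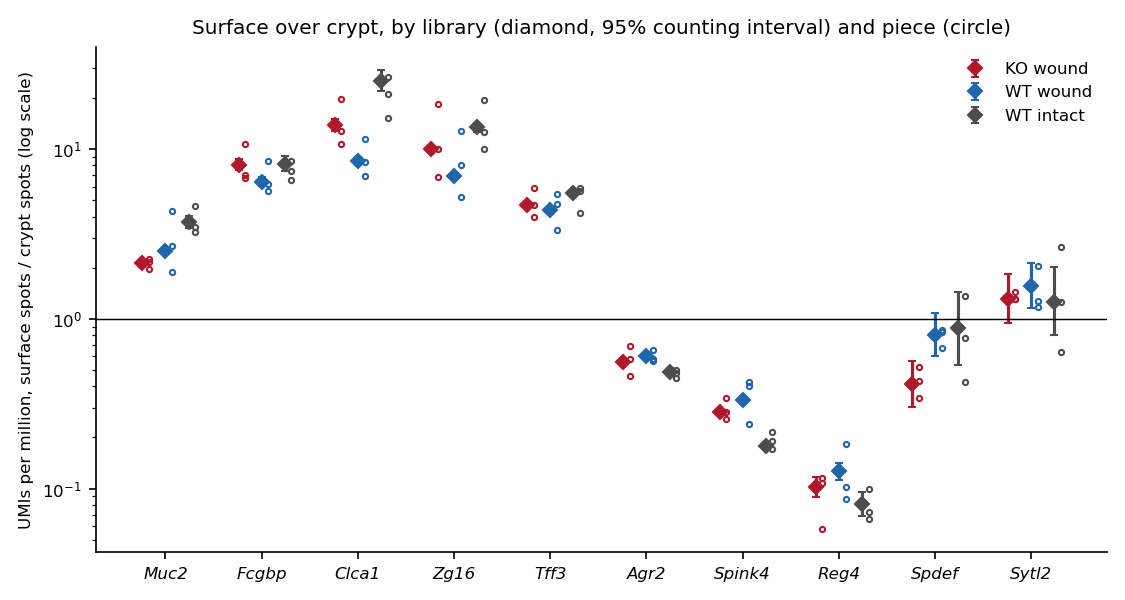
Ratio of surface to crypt spots for each gene on a log axis, with KO wound, WT wound and WT intact from left to right, diamonds for the libraries with 95% counting intervals and circles for the 3 pieces. Muc2, Fcgbp, Clca1, Zg16 and Tff3 stand above 1 in all 9 pieces, and Agr2, Spink4 and Reg4 below 1 in all 9.

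The 5 mucus genes followed one another from spot to spot. Over the epithelial spots the 10 pairs among them had a median Pearson r of 0.810 in KO wound, 0.837 in WT wound and 0.829 in WT intact. The 3 pairs among Agr2, Spink4 and Reg4 had medians of 0.620, 0.629 and 0.611, and the 15 pairs between the sets had medians of -0.456, -0.331 and -0.536. These are descriptions over 421, 403 and 236 spots that share a library, depth and position along the crypt, and the sets were formed from the surface and crypt levels of the same spots.

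Summed, the 5 mucus genes gave 8.13, 9.77 and 12.6 UMIs per UMI of Agr2, Spink4 and Reg4 in surface spots of KO wound, WT wound and WT intact, against 0.434, 0.691 and 0.380 in crypt spots. Over whole libraries the balance was 2.85, 3.61 and 3.34. It differed more between pieces than between libraries, at 4.05, 3.07 and 1.89 in the KO wound pieces, 2.84, 4.90 and 2.80 in the WT wound pieces and 4.85, 2.92 and 2.65 in the WT intact pieces.

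Class by class, the difference between WT wound and WT intact was not the same for all genes. Spink4 was the member past 2-fold in surface spots, with 2083 CPM in WT wound, against 853 in WT intact (ratio 2.44; 1 of 10 members, background 1.91%). In middle spots it was Clca1, with 1937 against 935 CPM (2.07; 1 of 10, background 2.98%). In crypt spots there were 3, Clca1 with 517 against 130 CPM (3.98), Zg16 with 2170 against 883 (2.46) and Muc2 with 1107 against 464 (2.39), where 6.06% of all genes passed.

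The classes are relative to each library, and the crypt class of WT wound reached further up the ranking than that of WT intact, to 3.59 against 2.01 on the log2 scale of surface over crypt genes. With the WT intact cut points applied to all libraries, which was chosen after seeing this, 51 WT wound spots and 78 WT intact spots were crypt spots. Clca1 then was 2.27-fold higher in WT wound crypt spots [1.87 to 2.75], Muc2 1.97-fold [1.77 to 2.18] and Zg16 1.14-fold [1.04 to 1.24]. Spink4 was 2.501-fold higher in surface spots [2.385 to 2.625], 2.18-fold in middle spots [2.11 to 2.26] and 1.44-fold in crypt spots [1.39 to 1.49]. The higher Spink4 of WT wound thus held in all classes under both cuts, and its ratio was larger toward the surface.

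Between KO wound and WT wound no member passed 2-fold in any class. Spink4 was higher in KO wound in each class, with 2778 against 2083 CPM in surface spots (1.33), 6773 against 3906 in middle spots (1.73) and 9821 against 6279 in crypt spots (1.56). Muc2 was also higher in each, at 1.15, 1.28 and 1.36. Clca1 was 1.14 in surface spots, against 0.777 in middle and 0.695 in crypt spots, and Zg16 was 0.951, 0.808 and 0.665. With the WT intact cut points the crypt values of Clca1 and Zg16 were 0.965 and 0.919, while those of Spink4 and Muc2 were 1.49 and 1.39.

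**Figure D3:**
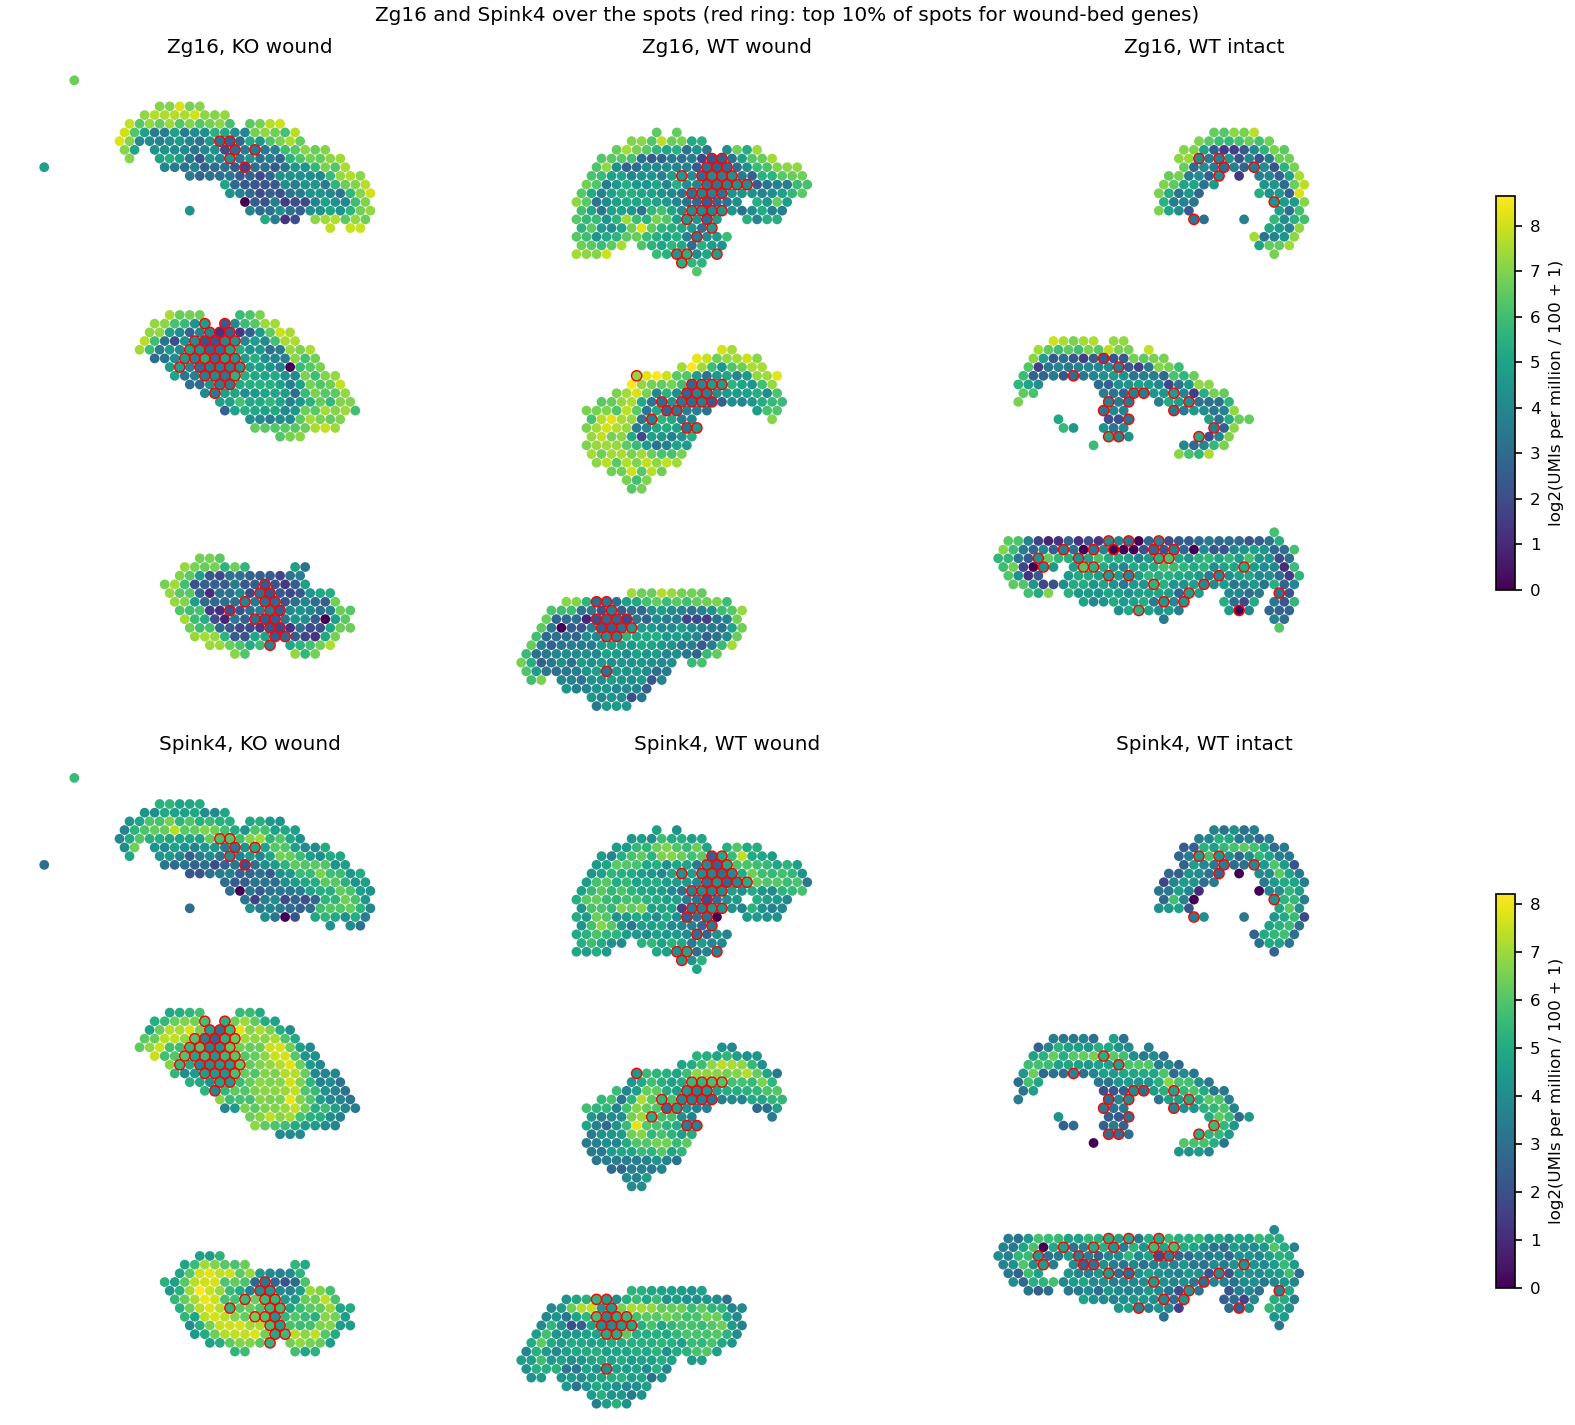
Zg16 (upper row) and Spink4 (lower row) on the array for KO wound, WT wound and WT intact, each dot a spot coloured by log2(CPM / 100 + 1), with red rings on the 10% of spots highest in wound-bed genes. Zg16 is high along the edge of most pieces and Spink4 in a band inside that edge, and the red rings form a patch in most wound pieces but are scattered in WT intact.

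Distance from the wound was measured in array steps to the nearest core spot of the same piece, the core being the 10% of spots of a library highest in 12 wound-bed genes. In WT intact, which has no wound, the same rule picks scattered spots whose wound-bed signal is low (319 CPM over its epithelial core spots, against 4563 in KO wound and 1211 in WT wound), and its values serve as the background. Epithelial spots at 1 to 2 steps were called near. Spots beyond 8 steps were called far: 77 in KO wound, all from pieces 1 and 2, 53 in WT wound, all from pieces 1 and 3, and 0 in WT intact. For comparison with WT intact, spots at 5 or more steps were used.

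In the core all 10 genes were lower than in near epithelial spots of the same library. At most 0.5-fold were 6 of 10 genes in KO wound and 8 of 10 in WT wound, where 5.92% and 4.33% of all genes were. The core held 35 epithelial spots in KO wound and 22 in WT wound. Zg16 had 880 CPM in the core, against 3872 in near spots, in KO wound (0.227) and 1412 against 8916 in WT wound (0.158). Spink4 had 3829 against 8781 CPM in KO wound (0.436) and 2338 against 5719 in WT wound (0.409), and Sytl2 differed least, at 0.837 and 0.615. The epithelial list had 13270 CPM in core spots, against 16460 in near spots, in KO wound and 16770 against 16230 in WT wound. Core and near spots also differed in class. Surface spots made up 0% of the core and 9.30% of the near spots in KO wound, and 9.09% and 19.1% in WT wound. Crypt spots made up 62.9% and 57.0% in KO wound, and 68.2% and 53.9% in WT wound. WT wound piece 2 gave 7 of 22 core and 42 of 89 near spots. KO wound piece 1 gave 2 of 35 and 16 of 86. The part of class and piece in these ratios was not tested.

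In KO wound Zg16, Clca1, Fcgbp and Tff3 were higher in each ring further out, Muc2 was level from 3 to 4 steps outward (2635, 2686 and 2663 CPM in the last 3 rings), and Spink4 was highest at 1 to 2 steps and lower in each ring beyond. Zg16 had 880, 3872, 8505, 11010 and 13970 CPM at 0, 1 to 2, 3 to 4, 5 to 8 and over 8 steps. Clca1 had 313, 1050, 2594, 3559 and 4662 CPM, while Spink4 had 3829, 8781, 7389, 5144 and 2572. In WT wound the summed profiles bent back: Zg16 had 1412, 8916, 12070, 10670 and 7736 CPM, Clca1 527, 2088, 3159, 3339 and 1754, and Spink4 2338, 5719, 3939, 2764 and 3363. The outer rings differ in their pieces, however. WT wound piece 2, the highest in Zg16 and Clca1, gave 49 of 148 epithelial spots at 5 to 8 steps and 0 of 53 beyond. KO wound piece 3 gave 38 of 119 and 0 of 77. The part of the pieces in the shape of the profiles was not tested. WT intact had 2260, 4944, 9050 and 8733 CPM of Zg16 up to 5 to 8 steps and 3008, 3340, 1566 and 1748 of Spink4, so a gradient of the same direction was there without a wound.

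**Figure D4:**
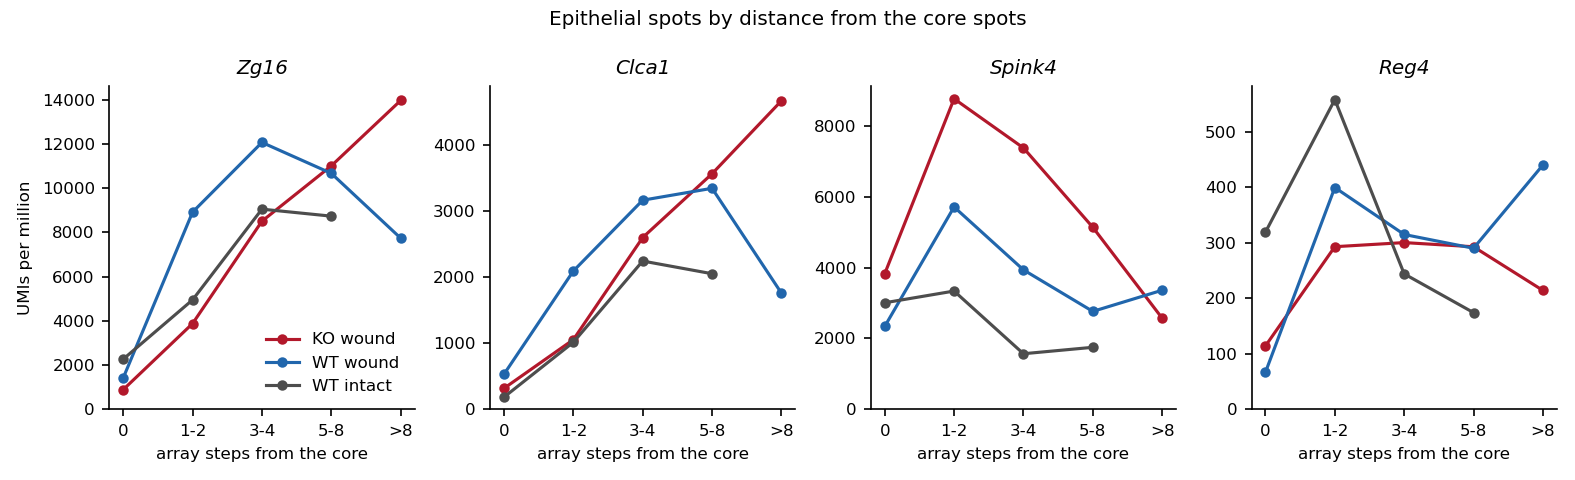
CPM of Zg16, Clca1, Spink4 and Reg4 over epithelial spots at 0, 1 to 2, 3 to 4, 5 to 8 and over 8 array steps from the core, as a line for each library. In KO wound Zg16 and Clca1 climb over all rings, in WT wound they are lower beyond 8 steps than at 5 to 8, and WT intact has no epithelial spot beyond 8 steps. WT wound piece 2 and KO wound piece 3 have spots at 5 to 8 steps but none beyond 8.

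Near against far, 2 members were at least 2-fold higher in KO wound, Spink4 at 3.41 [3.30 to 3.54] and Spdef at 2.25 [1.46 to 3.51], where 15.7% of genes were. At most 0.5-fold were 4 members, Clca1 at 0.225 [0.212 to 0.239], Zg16 at 0.277 [0.269 to 0.286], Fcgbp at 0.443 [0.419 to 0.468] and Tff3 at 0.453 [0.438 to 0.468], where 3.76% of genes were. In WT wound 0 members passed in either direction, where 5.34% of genes were higher and 1.05% lower, with ratios between 0.882 for Fcgbp and 1.70 for Spink4.

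The sums of both wound libraries joined pieces of unequal make-up. In WT wound, piece 2 gave 42 of the 89 near spots, had the highest Zg16 and held no far spot. In pieces 1 and 3 taken singly Zg16 was 0.354 and 0.298 times as high near as far, against 1.15 in the sum, and Clca1 was 0.437 and 0.443, against 1.19. KO wound pieces 1 and 2 had 0.382 and 0.275 for Zg16 and 0.221 and 0.227 for Clca1. So within each of the 4 pieces that hold far spots Zg16 and Clca1 were lower near the core. In KO wound, piece 3 gave 36 of the 86 near spots, had the most Spink4 and held no far spot. Spink4 was 1.73 and 4.88 times as high near as far in KO wound pieces 1 and 2, against 3.41 in the sum. Spdef was 2.46 and 2.05 in these pieces.

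Against spots at 5 or more steps every piece of every library could be used. Clca1 was lower near the core in all 9 pieces, at ratios of 0.237 to 0.277 in KO wound, 0.342 to 0.621 in WT wound and 0.256 to 0.697 in WT intact. Zg16 was 0.302 to 0.410, 0.303 to 0.942 and 0.257 to 0.683, and Tff3 0.424 to 0.472, 0.506 to 0.800 and 0.352 to 0.649. Spink4 was higher near the core in all 9 pieces, at 1.54 to 2.15 in KO wound, 1.56 to 3.45 in WT wound and 1.46 to 2.06 in WT intact. For these genes the ranges of the libraries overlapped, except that the Clca1 and Tff3 ranges of KO wound lay below those of WT wound. For both genes the WT intact range overlapped those of both wound libraries. The share of all genes that lay apart in this way was not counted, so it is not known how common this is.

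Position along the crypt differed with distance too. Of the near epithelial spots 9.30% were surface spots in KO wound, 19.1% in WT wound and 15.4% in WT intact, against 53.1%, 44.8% and 55.0% at 5 or more steps. Near and distant spots were therefore also compared within 1 piece and 1 class, wherever at least 3 spots stood on both sides, an analysis chosen after the data were seen. Zg16 was lower near the core in 8 of 8 such comparisons in KO wound (0.482 to 0.861), in 6 of 9 in WT wound (0.418 to 1.45) and in 0 of 3 in WT intact (1.02 to 1.42). Clca1 was lower in 7 of 8, 6 of 9 and 1 of 3.

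Muc2, in contrast, was lower near the core in 2 of 8 comparisons in KO wound, 3 of 9 in WT wound and 1 of 3 in WT intact. Reg4 was lower in 6 of 8, 8 of 9 and 1 of 3, with medians of 0.470, 0.366 and 1.13. Over all classes Spink4 was lower near the core in 4 of 8, 2 of 9 and 1 of 3. Spink4 in surface spots was higher near the core in each piece that could be compared. The ratio was 3.55 [3.19 to 3.93] and 2.12 [1.96 to 2.29] in KO wound pieces 2 and 3, and 1.91, 2.16 and 1.95 in the WT wound pieces. In WT intact it was 1.22 [0.916 to 1.62] and 1.79 [1.42 to 2.27] in pieces 1 and 2.

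In KO wound piece 2, for example, Spink4 had 6828 CPM in 4 near surface spots, against 1925 in 43 distant surface spots, and Zg16 had 6874 against 14260 CPM in the same spots. In WT wound piece 2 Spink4 had 2774 CPM in 10 near surface spots, against 1284 in 28 distant ones, while Zg16 had 25150 against 17330 CPM. The near surface spots are few, between 3 and 10 per piece, and the intervals cover only their counting error.

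**Figure D5:**
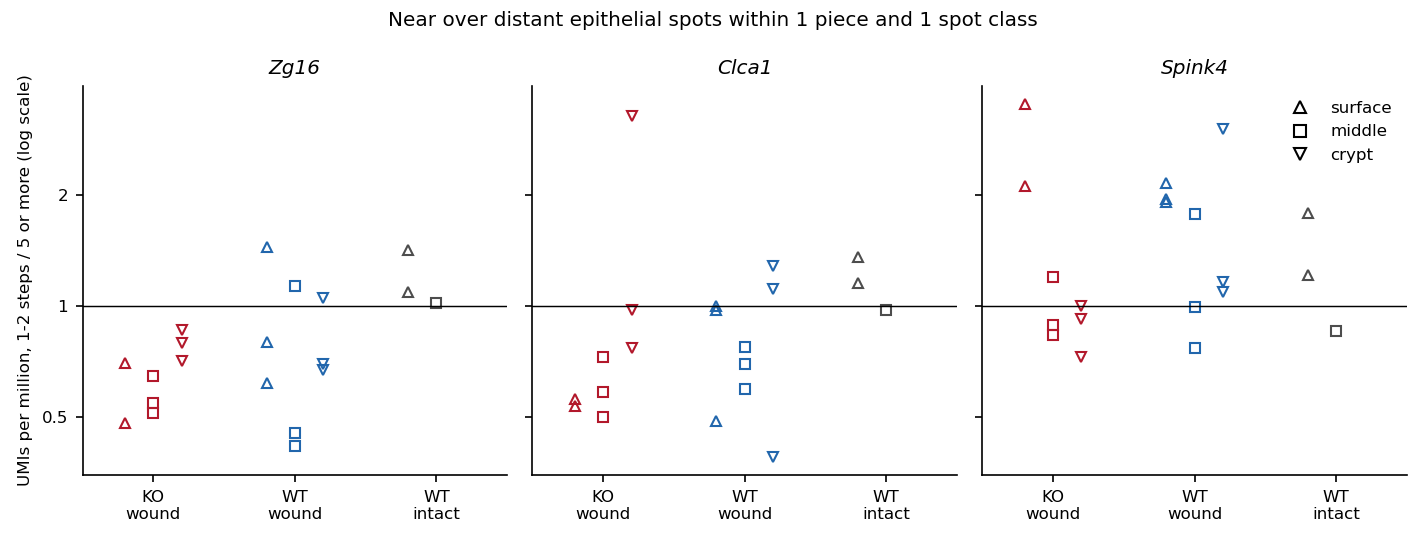
Near (1 to 2 steps) over distant (5 or more steps) epithelial spots within 1 piece and 1 spot class for Zg16, Clca1 and Spink4 on a log axis, with KO wound, WT wound and WT intact from left to right and a symbol for each class. All 8 KO wound values of Zg16 lie below 1, those of WT wound lie on both sides, and the surface values of Spink4 lie above 1 in all 3 libraries.

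Other genes of the secretory pathway, in lists chosen by function, were mostly within 2-fold between libraries. Among 12 regulators of secretory fate 0 of 12 were past 2-fold in WT wound over WT intact (median log2 ratio 0.17) and 0 of 12 in KO over WT wound (0.13). Atoh1, the factor that commits cells to the secretory lineage, had 37.6 CPM in KO wound, 29.4 in WT wound and 39.0 in WT intact, ratios of 1.28 [1.098 to 1.496] for KO over WT wound and 0.753 [0.644 to 0.881] for WT wound over WT intact. Klf4, a factor of goblet and surface cell differentiation, had 419, 372 and 353 CPM.

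Of 16 genes of mucin glycosylation, 14 had enough UMIs, and 0 passed 2-fold in either comparison, while 13 of 14 had a ratio above 1 in both (median log2 0.34 after wounding in WT and 0.16 between the wounds), where 61% and 58.9% of all genes did. Among 18 genes of the endoplasmic reticulum secretory machinery 0 passed, with medians of 0.29 and 0.09. These 18 genes lay toward the crypt base, as Agr2 did, with median log2 ratios of surface over crypt spots of -0.83 in KO wound, -0.55 in WT wound and -0.62 in WT intact. Among 12 genes of granule exocytosis 0 passed, with medians of 0.45 and 0.01.

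In a list of 19 other goblet cell genes, 16 were measured. Retnlb, which encodes a bactericidal resistin-like protein of goblet cells, had 806 UMIs (90.2 CPM) in KO wound, 262 (23.2 CPM) in WT wound and 9 (1.10 CPM) in WT intact, ratios of 3.90 [3.38 to 4.50] for KO over WT wound and 21.1 [10.9 to 46.6] for WT wound over WT intact. Muc1, a transmembrane mucin, had a ratio of 2.38 [1.82 to 3.15] in WT wound over WT intact. Lrrc26, an auxiliary subunit of BK potassium channels, was lower, at 0.439 [0.377 to 0.510]. The other 13 measured genes of the list stayed within 2-fold in both comparisons. Values by piece are not given for Retnlb, Muc1, Lrrc26, Atoh1 or Klf4. It is thus not shown whether a single piece carried any of their ratios, and their intervals cover counting error only.

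By the lowest Pearson r over the 3 libraries between a gene and the mean of the 10 members, both as log2(CPM / 100 + 1) over all spots, the most alike of 2177 genes were Ckmt1 (0.712), Spink1 (0.704), Muc3 (0.697), Tspan1 (0.680), Lgals4 (0.672), 2610528A11Rik (0.664), Tmem45b (0.653), Muc13 (0.648), 2200002D01Rik (0.644) and Lypd8 (0.641). Muc3 and Lypd8 belong to the surface list and Lgals4 to the epithelial list used to class spots. For the members, which are part of that mean, the same measure was 0.746 to 0.790 for the 5 mucus genes, 0.547 for Agr2, 0.152 for Reg4 and 0.137 for Spink4, while Spdef and Sytl2 had too few UMIs for it. The values share libraries, depth and the amount of epithelium under each spot.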

How the data were processed

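The deposited files hold counts of UMIs per gene and spot, with the array position of each spot, made by the authors with Space Ranger 1.2.1, per the file headers, on the mm10 genome, per the submitters' processing notes. The sources used here give neither alignment settings nor an annotation release. Library totals were 8180099 to 11306771 UMIs, so a count of 0 allows up to 0.265 to 0.367 CPM (3 UMIs).

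UMIs were summed over spots and divided by the total of those spots. Ratios have exact conditional binomial 95% intervals. Intervals and floors cover counting error only. Each group was 1 library of 3 pooled replicates, so no test was run. Pieces were connected spots of at least 20; 3 KO wound and 5 WT intact spots lay outside them. Ratios over all genes needed 50 UMIs over both sides and were called at 2 or 0.5. Epithelial spots were ranked by log2((surface CPM + 100) / (crypt CPM + 100)). The core was 10% of spots. Barcodes mark array positions, and 130 of them occur in all 3 libraries.

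All 10 members were named. From other lists the rule named up to 3 genes per direction and comparison with at least 200 UMIs and a 2-fold ratio, plus Retnlb, Atoh1 and Klf4, and the 10 genes of most alike pattern among those with 500 UMIs per library. List genes that fell under this rule outside the goblet and secretory lists are not described. The members and lists were chosen with earlier results of these data known. The scripts were tested on simulated data. Alternatives were TMM scaling, scaling to the epithelial list, other cuts, cores and distances, and leaving out each piece. Python 3.11.15, numpy 2.4.6, scipy 1.17.1, pandas 2.3.3, matplotlib 3.10.9, R 4.3.3 and edgeR 4.0.16 (TMM factors only) were used. Values were rounded to 4 digits before printing.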

Additional observations from a re-analysis of the deposited data

How the results depend on the processing

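With 1 library per group, 3 pieces of unknown animals and position-dependent depth, no value has a replicate check. No paired analysis was possible because the labels give 1 library per group and no replicate numbers for the pieces. Over 16 settings the median log2 ratio of the members in WT wound over WT intact was 0.16 to 0.69, against 0.53, all above 0, and leaving out single pieces gave the same range. The value of 0.16 was without WT wound piece 2. The settings with a minimum of 10 or 200 UMIs could not change any ratio of a member between libraries, as every member had more. The count at least 2-fold higher, 0, was 5 at a fold of 1.5, 1 as a mean over spot classes and 0 to 2 without single pieces (2, Clca1 and Muc2, without WT intact piece 1). For KO over WT wound single pieces moved the median from -0.082 to 0.38, against 0.12. The surface over crypt median was 0.74 in KO wound, 0.98 in WT wound and 1.12 in WT intact. Scaled to the epithelial list it was -0.35, -0.0035 and -0.051, below 0 in all 3 libraries, and 4 members rather than 2 were lower in WT wound. With 2 equal classes in place of 3 it was 0.63 and 0.80 in KO wound and WT wound. It was 1.13 in WT wound without cell-cycle genes in the crypt list, and 1.03 to 2.19 in WT intact without single pieces. The value of 2.19 was without WT intact piece 2, where Spdef had too few UMIs for a ratio and was left out. The median then fell on Muc2, whose log2 ratio was at most 2.19 without single pieces, so 2.19 partly reflects the lost gene. The near over far median of WT wound, 0.29, kept its sign in 7 of 10 settings. It was -0.15 with a 5% core, 0.17 with a core of 10% of each piece and -0.15 over all spots. It was 0.59 scaled to the epithelial list, 0.41 with near as 1 to 4 steps and 0.062 with far as 5 or more. Without single pieces it was -0.25 to 0.66. The value of 0.66 was without WT wound piece 1, where Spdef again had too few UMIs and was left out. The WT wound counts of 0 higher and 0 lower members became 1 higher when scaled to the epithelial list. They became 1 lower as a mean over classes and with far as 5 or more. Without single pieces they were 0 to 1 higher and 0 to 3 lower. In KO wound the near over far median, 0.14, kept its sign in 6 of 11 settings: it was -0.28 with a 5% core, -0.082 with a 20% core, -0.22 over all spots, -0.036 as a mean over classes, and -0.13 to 0.15 without single pieces (-0.13 without KO wound piece 2). Its 2 higher members were 1 over all spots, 1 with far as 5 or more and 0 as a mean over classes, and its 4 lower ones were 2 scaled to the epithelial list, 2 with near as 1 to 4 steps and 1 as a mean over classes. Near over far had no value in WT intact, which has no epithelial spot beyond 8 steps. Of 798 values of single members under other settings, 613 stayed within the spread over pieces and 185 moved by more, and 64 had the other sign, all of members within 2-fold (0 of 273 for members past it). The 613 include the values under the minimum UMI settings, which could not move. Values without single pieces share counts with the main value and with that spread, so their staying within it says little. The causes were not tested. Leaving out the spots outside pieces, the means over classes (far then being 5 or more steps), the crypt list without cell-cycle genes, the WT intact cut points and the comparisons within 1 piece and class were chosen after seeing the data.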

Other observations

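Genes of the endoplasmic reticulum secretory machinery were higher near the wound core than far from it in KO wound, with a median log2 ratio of 0.87 over 16 measured genes, of which 7 were at least 2-fold higher, where 15.7% of all genes were. Of those with at least 200 UMIs, Pdia6, a protein disulfide isomerase, had 263 CPM near and 93.8 far (2.80 [2.31 to 3.40]), and Hspa5, the main chaperone of the compartment, had 411 and 189 (2.17 [1.89 to 2.51]). In WT wound the median was 0.31 and 2 of 16 were at least 2-fold higher, where 5.34% of all genes were. Retnlb had 247 CPM in near epithelial spots of KO wound, against 9.72 in far ones, a ratio of 25.4 [15.6 to 44.2], and the ratio in WT wound was 6.05 [3.03 to 13.7]. Near spots held more crypt spots than far ones did, 57.0% of them in KO wound and 53.9% in WT wound. Near and far spots also came from unlike pieces. KO wound piece 3 gave 36 of 86 near spots and 0 far ones, and WT wound piece 2 gave 42 of 89 and 0. Ratios within a piece are not given for these genes, and the part of spot class and piece in their ratios was not tested. The differences between the libraries were not tested either.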
